A study of Mus musculus with 6 samples.

Results

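Saa3 and 6 other acute-phase genes (Saa1, Saa2, Lcn2, Hp, Slpi and Cp) were examined in tumor-associated macrophages (TAMs), as 7 of the 55421 genes in the count table. The members were chosen from earlier results of the same genotype contrast, because Saa3 fell while Il1a, Il1b and Il6 rose. The values of the members and of those 3 cytokine genes are therefore given as a description and carry no test. All mice carried floxed alleles of Pdcd1, the gene of the inhibitory receptor PD-1. Pdcd1f/f mice without Cre were the controls, and Pdcd1f/fLysMcre mice also expressed Cre under the lysozyme (LysM) promoter, which is active in macrophages, monocytes and neutrophils. Mice of both genotypes, 8 to 12 weeks old, received tumors that the labels call M17 (in the study's methods, the MC17-51 fibrosarcoma), and on day 15 the tumors were taken for the isolation of TAMs, defined as CD11b+F4/80+ cells, with 3 libraries for each genotype. The study's sort of TAMs also required CD45 and excluded Ly6G, the surface marker of neutrophils. Neither the labels nor the methods say whether a library came from 1 mouse or from pooled mice, so the p-values below measure only the spread between these samples.

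The acute-phase response is the change in plasma proteins that follows infection, injury or a tumor. Interleukin-1 and interleukin-6 drive it through NF-kB, C/EBP and STAT3, mostly in hepatocytes, while macrophages and epithelial cells make some of the same proteins locally. Saa1 and Saa2 encode the serum amyloid A proteins secreted by the liver, whereas mouse Saa3 is the form made outside the liver, in activated macrophages and adipose tissue. Lcn2 (lipocalin 2) sequesters the iron carriers of bacteria, Hp (haptoglobin) binds free hemoglobin, Slpi inhibits serine proteases of neutrophils, and Cp (ceruloplasmin) is a copper-carrying ferroxidase.

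Total counts ranged from 41833823 to 50571081 among controls and from 47797391 to 51417209 among Pdcd1f/fLysMcre libraries. Normalized counts below are the authors' values, scaled by a size factor for each library. Lyz2, into which Cre is inserted, had 207970 to 225230 normalized counts without Cre and 405 to 465 with it, which separated the genotypes as labelled. Cre, the drop in Lyz2 and the targeting of Pdcd1 come together in this contrast and cannot be told apart. Pdcd1 had 10 to 15 raw counts in the controls and 7 to 16 in the Pdcd1f/fLysMcre libraries, and gene-level counts carry no information on the floxed exons. Pdcd1f/f replicate 1 and Pdcd1f/fLysMcre replicate 2 stood apart from the other libraries in their trend with the GC content of genes. The trend was measured on each library's deviations from its genotype mean. Spearman's rho across 10607 genes was −0.76 and −0.70 in these 2 libraries and 0.19 to 0.71 in the others. Deviations within a genotype balance out, so the trends of its libraries are not independent of each other. The fold changes of the members and the counts of calls are also given without these 2 libraries. Summed over 4 genes of the Y chromosome (Uty, Kdm5d, Eif2s3y, Ddx3y), there were 1545 to 1914 normalized counts in the controls and 6267 to 7233 in the Pdcd1f/fLysMcre libraries, and Xist had 17318 to 26511 and 8530 to 13137. The sex makeup of the libraries and the genotype therefore cannot be told apart. Every library held both Xist and Y-linked transcripts, and whether each mixed mice of both sexes was not tested. In edgeR's two-sided quasi-likelihood test with Benjamini-Hochberg adjustment, 786 of 14469 genes tested (5.43%) passed an adjusted p of 0.05, of which 350 (2.42%) were higher and 436 (3.01%) were lower in Pdcd1f/fLysMcre TAMs.

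Saa3 was the most abundant member in both genotypes and was 2.88-fold lower in Pdcd1f/fLysMcre TAMs. Saa3 (ENSMUSG00000040026) lies on chromosome 7 of GRCm38 from 46711998 to 46715700, on the minus strand. Normalized counts of the control replicates 1, 2 and 3 were 5471, 5716 and 5736, and those of the Pdcd1f/fLysMcre replicates, in the same order, were 1797, 2045 and 2022. All 3 control libraries were above all 3 Pdcd1f/fLysMcre libraries, and the gap between the genotypes was many times wider than the spread within either. The means were 5641 ± 147 (SD, n = 3) and 1954 ± 137 (SD, n = 3), so the log2 fold change was −1.53 (standard error 0.07). Libraries of 1 genotype varied by 2.61% in the controls and by 7.01% in the Pdcd1f/fLysMcre group (coefficient of variation). Among the 14469 genes tested, the normalized counts of Saa3 stood at percentile 87.1 in the controls and at percentile 66.3 in Pdcd1f/fLysMcre TAMs, without adjustment for gene length. Its log2 fold change ranked 37th from the lowest. In bulk RNA, fewer cells that express a gene and less of its RNA per cell cannot be told apart.

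**Figure D1:**
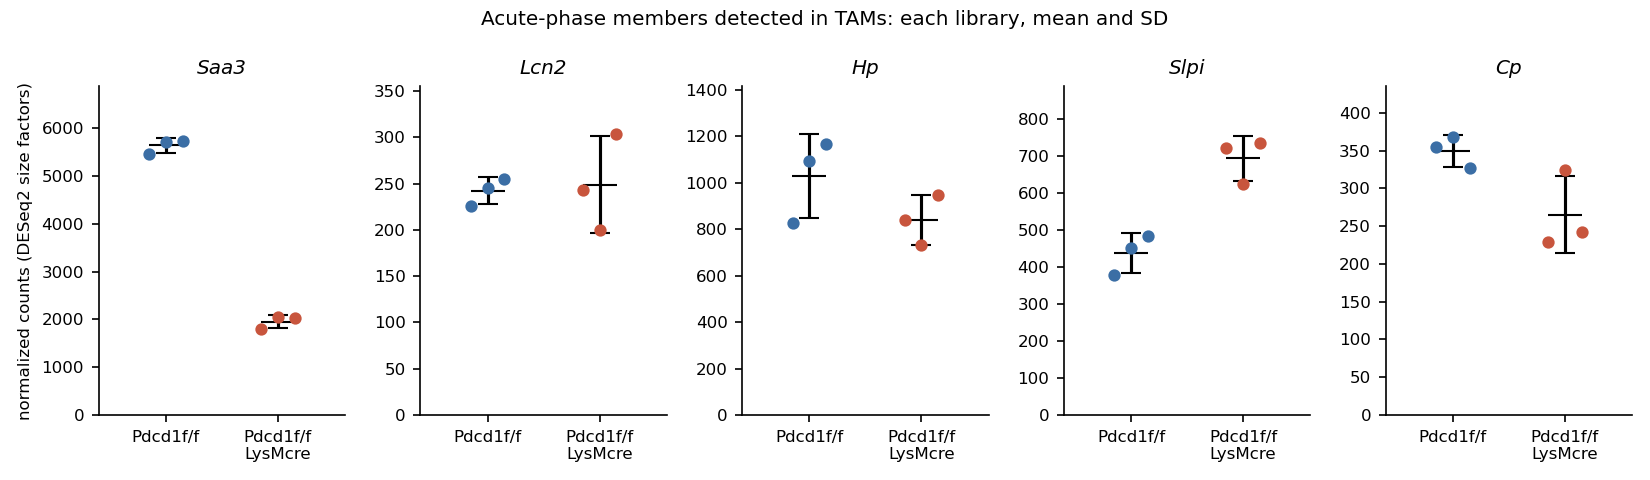
Normalized counts (y axis, from 0, with its own range for each gene) of the 5 acute-phase genes with reads, in 3 Pdcd1f/f (blue) and 3 Pdcd1f/fLysMcre (red) TAM libraries. Points are libraries, horizontal lines means and bars 1 SD. The Saa3 libraries sit between 5471 and 5736 in the controls and between 1797 and 2045 in Pdcd1f/fLysMcre TAMs, Slpi is higher in the latter, and Lcn2 and Hp overlap.

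The liver forms were not detected. Saa1 (ENSMUSG00000074115, chromosome 7 from 46740497 to 46742980, minus strand) and Saa2 (ENSMUSG00000057465, chromosome 7 from 46751790 to 46754313, plus strand) had 0 counts in each of the 6 libraries. A count of 0 over 284928537 counts allows a level of up to 0.0105 CPM (counts scaled to the library total), from 3 counts, and covers counting error only. Neither gene is in the normalized table and neither was tested. Saa4, the constitutive liver form 12.3 kb from Saa3, also had 0 counts in every library.

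Reads of 42 nt could tell the 3 serum amyloid genes apart over most of their transcripts. Of the 514 windows of 42 nt in the Saa3 transcript Saa3-201 (555 nt), 17 (3.31%) also occurred in another gene, each of them in Saa1, and 497 were its own. Saa1-201 had 456 windows of its own among 568, and Saa2-203 had 535 among 611. No window of the Lcn2, Hp, Slpi and Cp transcripts searched occurred in another gene. The handling of reads that map to several places is not stated in the sources used here.

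The sequences before the transcription start show how far the serum amyloid genes differ from each other, and they are printed with that of Slpi, the member that was higher in Pdcd1f/fLysMcre TAMs. RefSeq promoter windows of GRCm38.p6, from 250 bases before to 50 bases after an annotated start, were matched for 6 of the 7 members, Cp with windows at 2 starts. Hp had no entry. The Slpi window lies inside the annotated gene, which on the minus strand begins at 164389095, and no window at that end was matched. Capitals mark matches to the C/EBP motif TTNNGNAA on either strand, and each sequence reads 5′ to 3′ on the strand of its gene.
Saa3, chr7:46715627-46715926, minus strand: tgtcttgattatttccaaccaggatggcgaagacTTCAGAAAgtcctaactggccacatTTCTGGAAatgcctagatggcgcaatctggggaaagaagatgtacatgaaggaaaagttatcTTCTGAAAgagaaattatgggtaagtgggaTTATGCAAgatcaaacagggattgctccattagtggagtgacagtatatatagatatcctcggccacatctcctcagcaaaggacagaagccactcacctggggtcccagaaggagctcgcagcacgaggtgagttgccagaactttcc
Saa1, chr7:46742931-46743230, minus strand: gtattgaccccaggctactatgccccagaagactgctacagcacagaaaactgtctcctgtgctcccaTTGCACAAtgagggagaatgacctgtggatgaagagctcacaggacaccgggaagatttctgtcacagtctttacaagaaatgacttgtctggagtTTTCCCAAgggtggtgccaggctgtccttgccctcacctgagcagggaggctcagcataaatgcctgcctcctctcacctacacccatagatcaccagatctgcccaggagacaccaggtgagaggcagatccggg
Saa2, chr7:46751583-46751882, plus strand: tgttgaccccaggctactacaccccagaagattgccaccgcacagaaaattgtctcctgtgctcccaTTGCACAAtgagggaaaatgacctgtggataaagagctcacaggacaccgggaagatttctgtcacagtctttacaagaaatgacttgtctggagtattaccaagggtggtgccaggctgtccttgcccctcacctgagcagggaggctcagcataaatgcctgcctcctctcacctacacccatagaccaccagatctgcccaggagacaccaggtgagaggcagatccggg
Slpi, chr2:164356458-164356757, minus strand: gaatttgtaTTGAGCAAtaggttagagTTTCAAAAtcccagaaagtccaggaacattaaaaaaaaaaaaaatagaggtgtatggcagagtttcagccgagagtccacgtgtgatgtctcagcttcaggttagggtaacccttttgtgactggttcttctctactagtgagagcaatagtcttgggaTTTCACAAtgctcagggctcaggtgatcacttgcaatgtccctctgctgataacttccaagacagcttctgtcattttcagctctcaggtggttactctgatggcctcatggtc
The Saa1 and Saa2 windows were identical at 287 of 301 aligned positions (95.3%). The Saa3 window was identical at 54.2% of aligned positions with Saa1 and at 54% with Saa2.

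The C/EBP motif occurred in the windows of all 6 members matched, and 40.7% of all 32851 RefSeq windows held it. Saa3 had 4 matches, whose first bases lay at −216, −191, −129 and −99 from the start, and 1.16% of all windows had at least 4. The motif was chosen with the sequences in view and the cut of 4 is the count of Saa3 itself, so nothing is read from this share. Slpi had 3 matches, Saa1 had 2, Saa2 and Lcn2 had 1 each, and each Cp window had 1. An NF-kB consensus (present in 8.46% of all windows) and the STAT motif TTCNNNGAA (8.3%) had no match in any member's window. The AP-1 motif TGANTCA (7.81% of all windows) and the TATA motif TATAAA (13.6%) each matched in a Cp window only. All motifs were searched on both strands and none of the matches of different motifs overlapped. A match describes letters, not binding, and a missing match covers these windows only.

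**Figure D2:**
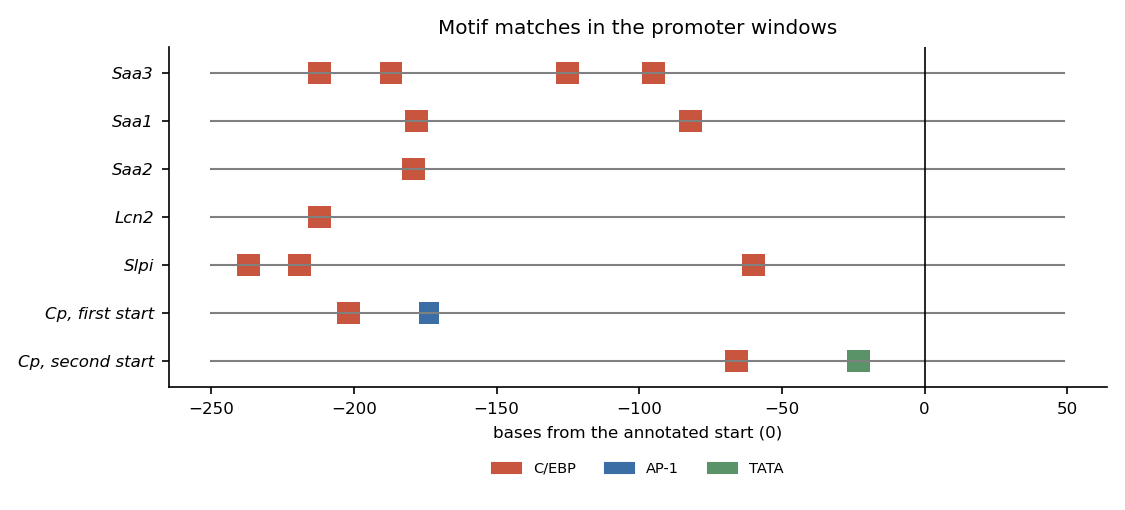
Motif matches in the RefSeq promoter windows of 6 acute-phase genes. The x axis gives bases from the annotated start (0), grey lines are the windows (Cp has a window at each of 2 starts), and coloured boxes are matches to the C/EBP, AP-1 and TATA motifs. Saa3 has 4 C/EBP matches, Slpi 3 and Saa1 2.

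Slpi, the inhibitor of neutrophil elastase and related proteases, was 1.59-fold higher in Pdcd1f/fLysMcre TAMs. Slpi (ENSMUSG00000017002, chromosome 2 from 164354070 to 164389095, minus strand) had 379, 451 and 483 normalized counts in Pdcd1f/f replicates 1 to 3, and 723, 624 and 735 in Pdcd1f/fLysMcre replicates 1 to 3. The lowest Pdcd1f/fLysMcre library was above the highest control library. The means were 438 ± 53.2 (SD, n = 3) and 694 ± 61.1 (SD, n = 3), a log2 fold change of 0.67 with a standard error of 0.11. The annotated gene also contains the microRNA gene Mir7678 on the same strand, whose reads the counting could have shared.

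Lcn2 did not differ between the genotypes beyond its spread. Lcn2 (ENSMUSG00000026822, chromosome 2 from 32384633 to 32388252, minus strand) had 226, 246 and 255 normalized counts in the controls and 243, 200 and 304 in Pdcd1f/fLysMcre TAMs, replicates 1 to 3 in each. The control libraries lay within the range of the Pdcd1f/fLysMcre libraries, which held both the lowest and the highest value. The means were 242 ± 14.8 (SD, n = 3) and 249 ± 52.1 (SD, n = 3), with a log2 fold change of 0.04 and a standard error of 0.16. The sign turned when Pdcd1f/f replicate 1 (−0.02) or Pdcd1f/fLysMcre replicate 3 (−0.13) was left out.

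Hp, whose protein clears free hemoglobin, overlapped between the genotypes. Hp (ENSMUSG00000031722, chromosome 8 from 109575128 to 109579172, minus strand) had 826, 1094 and 1165 normalized counts in the controls and 837, 730 and 947 in Pdcd1f/fLysMcre TAMs. Control replicate 1 was below 2 of the Pdcd1f/fLysMcre libraries, and the other control libraries were above all of them. The means were 1029 ± 179 (SD, n = 3) and 838 ± 108 (SD, n = 3), a log2 fold change of −0.29 with a standard error of 0.14.

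Cp, the ferroxidase, was 1.32-fold lower in Pdcd1f/fLysMcre TAMs, with a narrow gap between the genotypes. Cp (ENSMUSG00000003617, chromosome 3 from 19957054 to 20009145, plus strand) had 355, 368 and 326 normalized counts in the controls and 229, 324 and 243 in Pdcd1f/fLysMcre TAMs. The groups did not overlap, but Pdcd1f/fLysMcre replicate 2, one of the libraries that stood apart on GC content, lay just under the lowest control. The means were 350 ± 21.1 (SD, n = 3) and 265 ± 51.1 (SD, n = 3), a log2 fold change of −0.40 with a standard error of 0.14. Cp overlaps Hps3 on the other strand, and the strand setting of the counting is not stated. Hps3 had 2216 ± 91.2 (SD, n = 3) and 2340 ± 158 (SD, n = 3) normalized counts, with a log2 fold change of 0.08.

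Over the members, 2 of the 5 genes tested passed the threshold, Saa3 in the lower direction and Slpi in the higher direction, beside 5.43% of all genes. The count depended on the libraries and the fit. It was 1 of 5 without Pdcd1f/fLysMcre replicate 1, where Slpi (0.64) did not pass, beside 1.51% of all genes in that fit. Without Pdcd1f/f replicate 1 it was 3 of 5, as Hp (−0.44) also passed, beside 21.6% of all genes in that fit. It was 3 of 5 without Pdcd1f/fLysMcre replicate 2 (Cp at −0.56), beside 2.5% of all genes in that fit. It was also 3 of 5 with the GC and length offsets (Cp at −0.49), beside 19% of all genes. With every gene of at least 1 count (Cp) it was 3 of 5, beside 7.32% of all genes. Without both libraries that stood apart it was 4 of 5, with Hp and Cp, beside 26.2% of all genes in that fit. The libraries of 3 of the 5 (Saa3, Slpi and Cp) did not overlap between the genotypes, beside 27.2% of all genes tested. The contrast served to choose the members, so nothing is read from these counts. The median log2 fold change of the 5 was −0.29, and that of all genes was −0.00.

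The members ranged widely in level. In RPKM (counts per kilobase of transcript, scaled to the library total), Saa3 had 216.5 ± 5.49 (SD, n = 3) in the controls, followed by Hp with 16.3 ± 2.8, Slpi with 10.6 ± 1.27, Lcn2 with 5.64 ± 0.33 and Cp with 1.85 ± 0.121 (SD, n = 3 for each). Each pair of neighbours in this order was separated in all control libraries, as Hp ranged from 13.1 to 18.4 and Slpi from 9.23 to 11.7. In Pdcd1f/fLysMcre TAMs, Saa3 still led with 74.2 ± 5.33 RPKM (SD, n = 3). Slpi and Hp changed places, with 16.7 ± 1.59 and 13.1 ± 1.81 RPKM (SD, n = 3 for each), but their ranges of 14.9 to 17.9 and 11.4 to 15.0 met. Lcn2 with 5.74 RPKM and Cp with 1.39 RPKM followed. With the summed length of all annotated exons in place of the transcript length, the orders were the same but the levels moved, Saa3 to 46.1 and Hp to 13.6 in the controls, and Saa3 to 15.8 and Slpi to 12.4 in Pdcd1f/fLysMcre TAMs. The distance of Saa3 from the next member thus depends on the length used.

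Across the 6 libraries, the log2 CPM of Saa3 had a Pearson correlation of −0.93 with that of Slpi and 0.81 with that of Cp, values that hold the genotype difference itself. For deviations from the genotype means, these were 0.03 and 0.58, and Hp and Slpi reached 0.97. These are descriptions over 6 libraries whose depth and GC profiles differ.

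The fold changes were recomputed under 15 alternatives, 6 of which left out a library in turn. Saa3 ranged from −1.59 to −1.47, Slpi from 0.56 to 0.74, Cp from −0.56 to −0.30, Hp from −0.44 to −0.18 and Lcn2 from −0.13 to 0.18. Without both libraries that stood apart, the log2 fold changes were −1.59 for Saa3, 0.64 for Slpi, −0.34 for Hp, −0.56 for Cp and 0.12 for Lcn2.

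**Figure D3:**
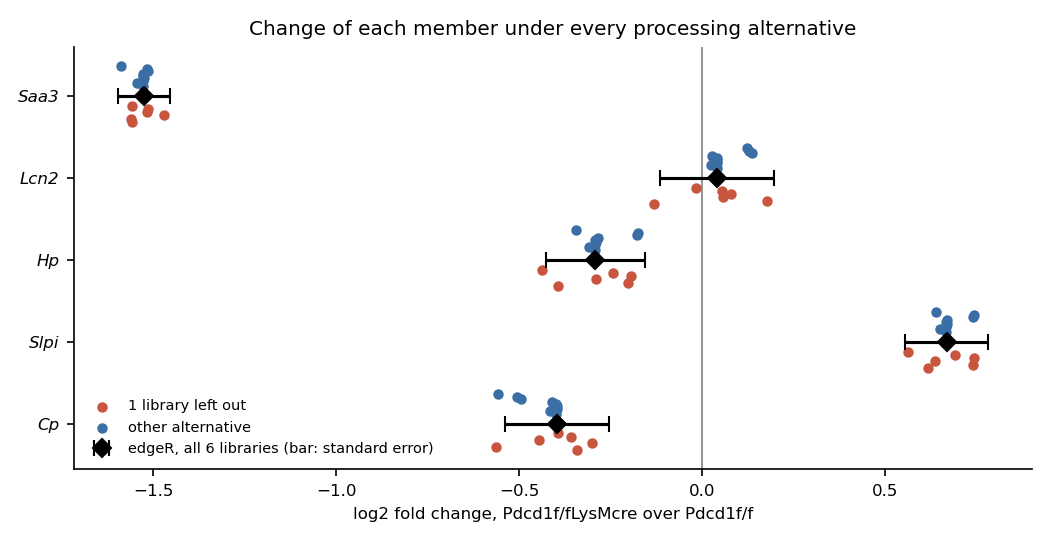
log2 fold change (x axis, Pdcd1f/fLysMcre over Pdcd1f/f) of the 5 acute-phase genes with reads under 15 processing alternatives. Diamonds are the edgeR fit of all 6 libraries with its standard error, red points leave out 1 library, and blue points are the other alternatives. Saa3 stays between −1.59 and −1.47, while Lcn2 falls on both sides of 0.

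Il1a, Il1b and Il6, which drive acute-phase genes, were higher in Pdcd1f/fLysMcre TAMs. Il1a had 3105, 2985 and 2883 normalized counts in the controls and 4617, 5315 and 4561 with Cre, so the log2 fold change was 0.69 (standard error 0.08). Il1b had 60327 ± 1133 (SD, n = 3) and 74620 ± 2346 (SD, n = 3), so the log2 fold change was 0.31 (standard error 0.06). Il6 had 193, 177 and 149 in the controls and 253, 278 and 236 with Cre, so the log2 fold change was 0.56 (standard error 0.14). The libraries of these 3 genes did not overlap between the genotypes, beside 27.2% of all genes, and since the genes served to choose the members nothing is read from this. The other cytokines were in lists of pathway genes chosen with earlier results known. Lif, a relative of interleukin-6, rose from 637 ± 21.5 (SD, n = 3) to 867 ± 9.75 (SD, n = 3) normalized counts (log2 fold change 0.45, adjusted p = 0.00928 from edgeR). Il10 rose from 2431 ± 165 (SD, n = 3) to 3119 ± 258 (SD, n = 3) (0.36, adjusted p = 0.0311 from edgeR). Of the 6 cytokines tested other than Il1a, Il1b and Il6, these 2 passed the threshold (33.3%), beside 5.43% of all genes. Il11 (0.92), Clcf1 (0.22), Osm (−0.07) and Tnf (−0.20) did not pass, and Il22 and Il17a had 0 counts.

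Among receptors and signalling genes, Lifr and Cebpa were lower and Jak2 was higher in Pdcd1f/fLysMcre TAMs. Of 12 receptor genes tested, 1 passed (8.33%), beside 5.43% of all genes. It was Lifr, the receptor of Lif, which fell from 1517 ± 109 (SD, n = 3) to 944 ± 125 (SD, n = 3) normalized counts (−0.68, adjusted p = 0.00393 from edgeR). The log2 fold changes of the interleukin-6 receptor chains Il6ra and Il6st were −0.04 and 0.06, that of the interleukin-1 receptor Il1r1 was −0.27, and that of the glucocorticoid receptor gene Nr3c1 was 0.02. None of them passed. Of 22 factors and inhibitors tested, 2 passed (9.09%). Cebpa, a C/EBP factor, fell from 4076 ± 419 (SD, n = 3) to 3192 ± 162 (SD, n = 3) (−0.35, adjusted p = 0.038 from edgeR). With the GC and length offsets, Cebpa was at −0.14 and did not pass (adjusted p = 0.0633 from edgeR, within a range of 6.7e-05 to 0.19 over the alternatives). The kinase gene Jak2 rose from 4446 ± 265 (SD, n = 3) to 5298 in the mean (0.25, adjusted p = 0.0484 from edgeR). Jak2 did not pass with RLE size factors (adjusted p = 0.0512 from edgeR) or with library size alone (adjusted p = 0.0621 from edgeR), within a range of 0.000836 to 0.21 over the alternatives. Cebpb (−0.27), Cebpd (−0.54), Stat3 (−0.14), Nfkb1 (0.18), Rela (−0.02), Nfkbiz (0.07) and the feedback inhibitor Socs3 (−0.24) did not pass. The liver factor Hnf4a had 0 counts.

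Other acute-phase genes split in direction. Of 30 listed, 15 had at most 10 counts in every library, among them the liver products Crp, Apcs, Fga, Fgb and Fgg with 0, and 14 were tested. Of these, 5 fell and 1 rose past the threshold (42.9% in all), beside 3.01% of all genes lower and 2.42% higher. The complement gene C4b fell from 1902 ± 162 (SD, n = 3) to 776 ± 44.9 (SD, n = 3) normalized counts (−1.29, adjusted p = 2.19e-05 from edgeR). Cfb, complement factor B, fell from 503 ± 95.9 (SD, n = 3) to 264 ± 20.6 (SD, n = 3) (−0.93, adjusted p = 0.00518 from edgeR). Serpina3g, a serine protease inhibitor, fell with a log2 fold change of −0.54 (adjusted p = 0.0302 from edgeR). The metallothionein genes Mt2 (−0.39, adjusted p = 0.0139 from edgeR) and Mt1 (−0.27, adjusted p = 0.039 from edgeR), which bind zinc and copper, also fell. Il1rn, the antagonist of the interleukin-1 receptor, rose from 37705 ± 935 (SD, n = 3) to 59271 ± 3787 (SD, n = 3) (0.65, adjusted p = 0.000365 from edgeR). C3 (−0.12), Fn1 (0.21) and Cd14 (0.15) did not pass.

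Among receptors and partners of the acute-phase proteins, 14 were tested, of which 2 fell and 1 rose (21.4% in all, beside 5.43% of all genes). Cd163, the receptor through which macrophages take up haptoglobin with hemoglobin, had 4429, 4576 and 4940 normalized counts in the controls and 2215, 2157 and 2112 in Pdcd1f/fLysMcre TAMs. Every control library was far above every Pdcd1f/fLysMcre library (−1.10, adjusted p = 9.01e-06 from edgeR). Trf, the gene of transferrin, which carries the iron that ceruloplasmin oxidizes, fell from 9762 ± 970 (SD, n = 3) to 5680 ± 382 (SD, n = 3) (−0.78, adjusted p = 0.000713 from edgeR). Cd36, a scavenger receptor that binds serum amyloid A, rose from 679 ± 15.7 (SD, n = 3) to 1300 ± 155 (SD, n = 3) (0.94, adjusted p = 0.000491 from edgeR). The serum amyloid A receptors Fpr2 (−0.00), Tlr2 (0.08), Tlr4 (−0.07) and Scarb1 (−0.26), and Hmox1 (0.10), which degrades heme, did not pass.

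Of the genes around Saa3, Hps5, Gtf2h1, Ldha, Tsg101, Uevld and Sergef, between 44.8 and 208 kb away, were tested. Their log2 fold changes lay between −0.09 and 0.18, and none of the 6 passed the threshold in edgeR or DESeq2, beside 5.43% of all genes in edgeR. At an unadjusted p under 0.05 from edgeR there was 1, Gtf2h1. With 6 genes nothing is read from this count.

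In all, 104 pathway genes other than the members were listed. The lists were chosen with earlier results of these data known. Nothing is therefore read from the shares below or from those of each list above. Of the 74 tested, leaving out Il1a, Il1b and Il6, 14 passed (18.9%), 5 higher and 9 lower, beside 5.43% of all genes. Their median log2 fold change was −0.04. With offsets for the GC content and length of genes, 32 of the 74 passed (43.2%), beside 19% of all genes, and over all genes the calls split into 1622 higher and 1121 lower, against 350 and 436 without offsets. Several pathway calls depended on single libraries. Jak2 (0.21 to 0.29 over the 6 fits), Cebpa (−0.44 to −0.29), Il10 (0.29 to 0.40) and Mt1 (−0.31 to −0.23) passed only without Pdcd1f/f replicate 1 when libraries were left out in turn. Serpina3g (−0.63 to −0.42) and Mt2 (−0.46 to −0.35) lost the call without Pdcd1f/f replicate 2 or 3 or Pdcd1f/fLysMcre replicate 1 or 2. Lif (0.42 to 0.47) lost it without Pdcd1f/f replicate 2 or Pdcd1f/fLysMcre replicate 1. C4b, Cfb, Il1rn, Lifr, Cd36, Cd163 and Trf passed in all 6 of these fits. Without both libraries that stood apart, 32 of the 74 passed (43.2%), beside 26.2% of all genes in that fit, and none of the 14 calls was lost.

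**Figure D4:**
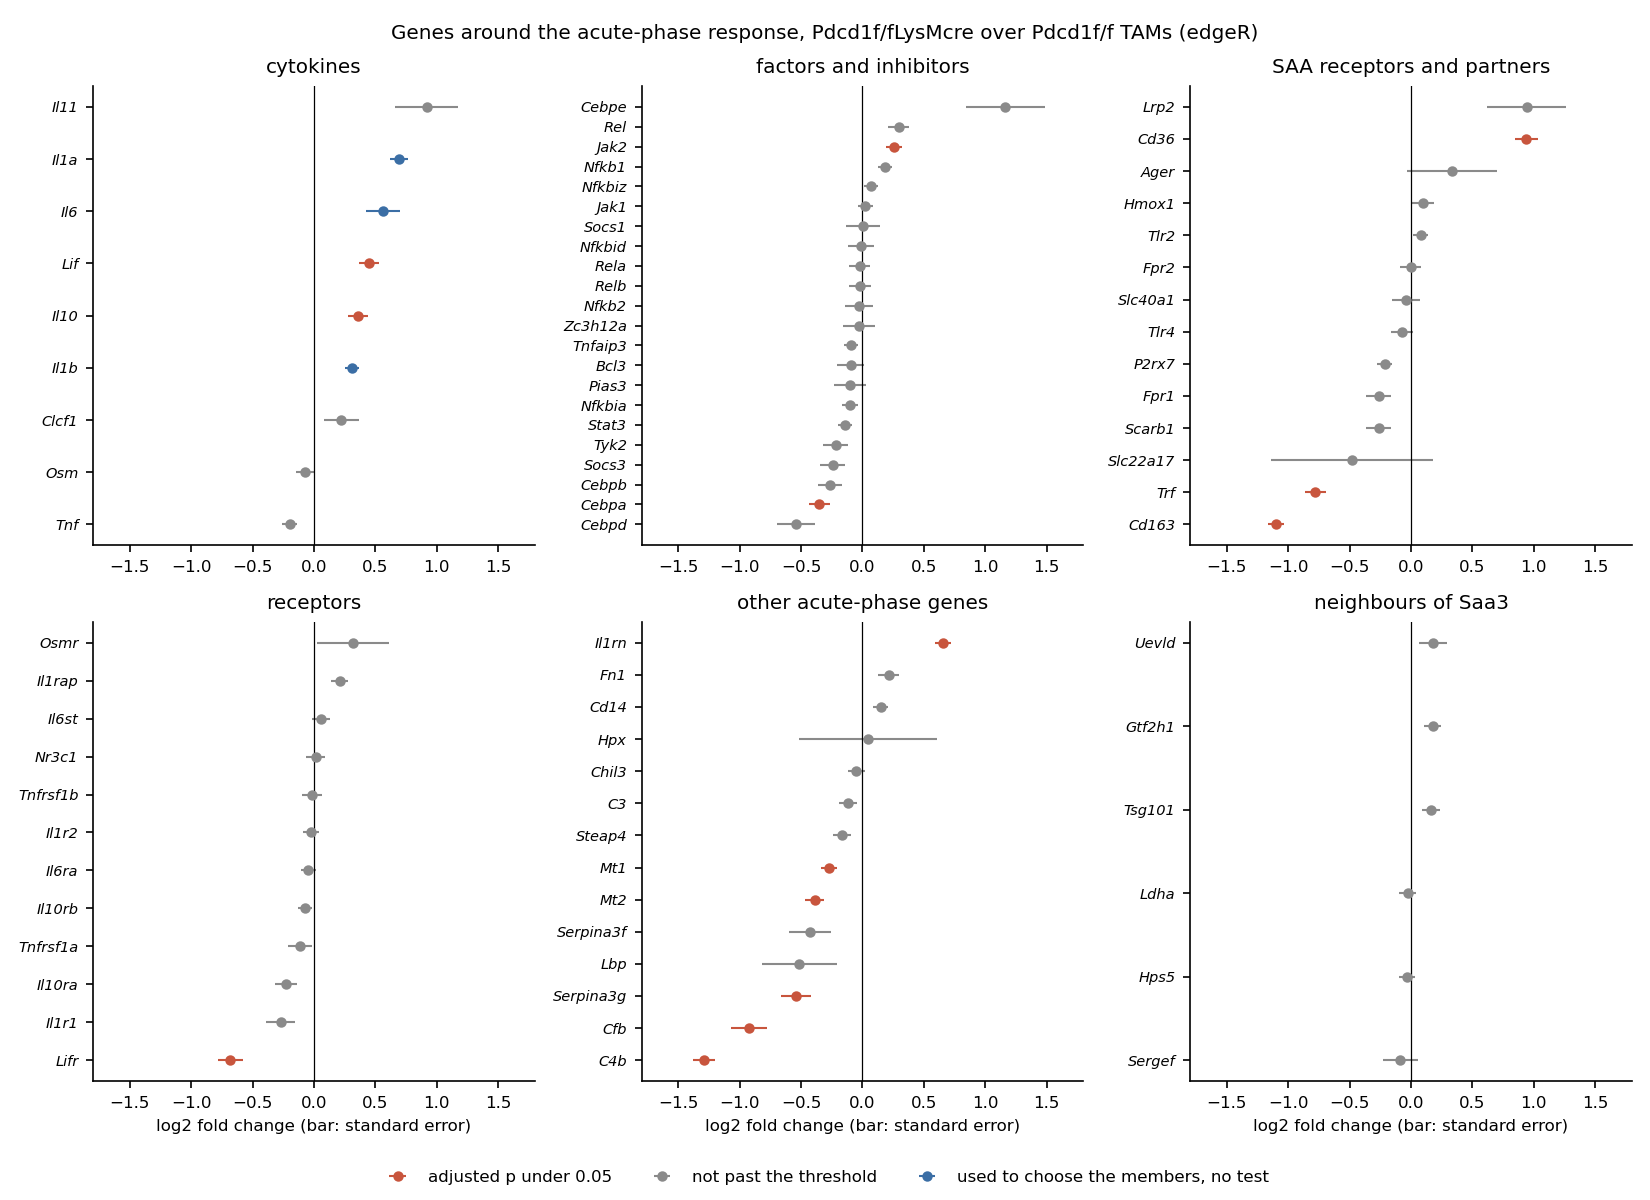
log2 fold change (x axis, Pdcd1f/fLysMcre over Pdcd1f/f, bars are standard errors) of the tested pathway genes and neighbours of Saa3, from edgeR over 6 libraries. Red points have an adjusted p under 0.05, grey points do not, and blue points are Il1a, Il1b and Il6, which served to choose the members and carry no test. Among other acute-phase genes 5 red points lie to the left, with C4b at −1.29, and 1 to the right.

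The 5 genes whose log2 CPM over the 6 libraries correlated best with that of Saa3 were Gdf3, Fcgr3, Jaml, Cnr2 and Fads1, with Pearson's r of at least 0.998 (rounded). They were chosen for this profile and carry no test. Gdf3, a growth factor of the TGF-beta family, went from 1700 ± 101 (SD, n = 3) to 564 normalized counts, a log2 fold change of −1.59, close to the −1.53 of Saa3. Jaml, an adhesion molecule of leukocytes, had 2712 ± 42.1 (SD, n = 3) and 1078, a log2 fold change of −1.33. Cnr2, the cannabinoid receptor of immune cells, had −0.78, the desaturase gene Fads1 −0.56 and the IgG receptor gene Fcgr3 −0.45. For deviations from the genotype means, the correlations with Saa3 were 0.89 for Gdf3, 0.73 for Fcgr3, 0.84 for Jaml, 0.79 for Cnr2 and 0.94 for Fads1. By that measure other genes came first, and Fads1, the best placed of the 5, ranked 88th among the genes tested.

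**Figure D5:**
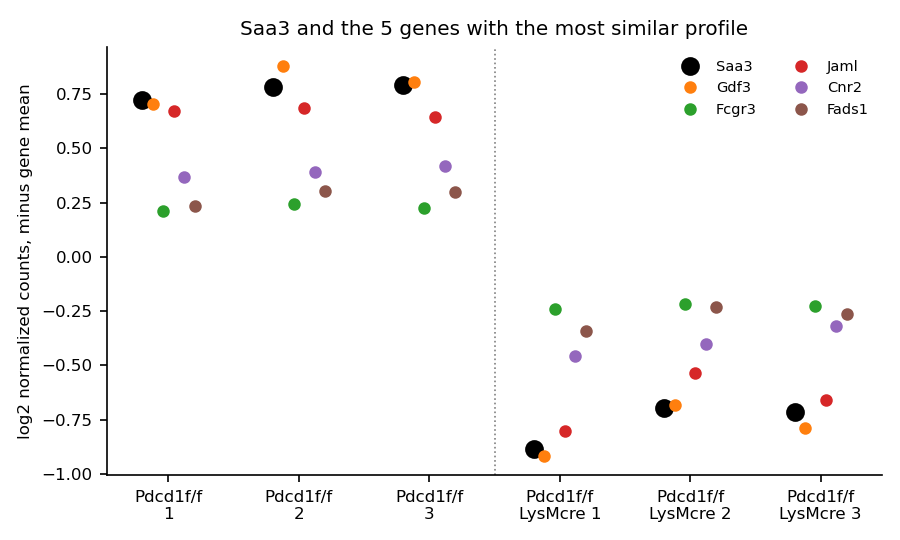
log2 normalized counts minus the gene's mean over the 6 libraries (y axis) of Saa3 (black) and its 5 nearest genes by profile, in each library (x axis). All 6 genes lie above 0 in the Pdcd1f/f libraries and below 0 in the Pdcd1f/fLysMcre libraries. Gdf3 and Jaml differ most like Saa3 in size.

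Markers of other cells were set beside these values. Of 11 macrophage markers tested other than Lyz2, which carries the Cre insertion, 7 were lower past the threshold (Adgre1, Csf1r, Mrc1, Mertk, C1qa, C1qb and C1qc), beside 3.01% of all genes. Their list without Lyz2 summed to 490350 to 535490 normalized counts in the controls and to 399910 to 412170 in Pdcd1f/fLysMcre TAMs. The defining markers were abundant, and Adgre1, the F4/80 gene, had 24435 to 33208 normalized counts over the 6 libraries and changed by −0.38 (adjusted p = 0.00496 from edgeR). The log2 fold changes of the others that passed were −0.32 for Csf1r, −0.31 for Mrc1, −0.61 for Mertk, −0.61 for C1qa, −0.55 for C1qb and −0.60 for C1qc. Of 16 neutrophil markers, 9 were tested, of which Csf3r and Mmp8 were lower and Cd177 was higher, beside 3.01% and 2.42% of all genes. Without Mmp9, which gave most of the sum, they summed to 6656 to 6826 and 5612 to 5770 normalized counts. Ly6g and Camp had at most 3 counts in any library, Elane at most 1 and Mpo at most 6. The S100a8 values, 1253 ± 206 (SD, n = 3) and 1473 ± 71.8 (SD, n = 3), overlapped. The part of neutrophils in the values of Slpi, Lcn2 and Hp, which neutrophils also express, was not tested.

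Hepatocyte markers summed to 5.59 to 9.86 normalized counts in the controls and 5.90 to 11.1 in Pdcd1f/fLysMcre TAMs, and Alb and Ttr had 0 counts. Adipocyte markers were at 0 in the controls and at most at 1.97. Of 8 fibroblast or tumor markers tested, Col1a2 was lower, beside 3.01% of all genes, and the list summed to 3343 to 3626 and 3188 to 3538. Epithelial markers summed to 378 to 471 and 382 to 445, lymphocyte markers to 12.05 to 33.4 and 19.7 to 29.5, and dendritic cell markers to 221 to 302 and 285 to 361. Of 5 endothelial markers tested, Pecam1 was lower (3.01% of all genes were), and the list summed to 1972 to 2065 and 1616 to 1728. Without Pecam1 it summed to 942 to 961 and 918 to 982, and the other 4 lay between −0.03 and 0.02 in log2 fold change. The part of the macrophage markers, which moved with the genotype, in the values of the members was not tested.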

How the data were processed

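The members and all gene and marker lists were chosen with earlier results of these data known. Polyadenylated RNA of TAMs was sequenced with a stranded kit as paired-end reads of 42 nt. The authors' first deposited table holds raw counts for Ensembl genes, made with cutadapt 2.5, STAR 2.7.3a on GRCm38 and featureCounts (Subread 1.6.2). The second deposited table holds a normalized signal for 16552 genes, equal to the count over a DESeq2 (1.24.0) size factor of 0.895 to 1.08. The filter behind it is not given in the sources used here.

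The raw counts were tested with edgeR 4.0.16 in R 4.3.3, with filterByExpr (minimum count 10, minimum total 15), TMM and robust glmQLFit, and adjusted over 14469 genes. Standard errors came from the fold change and the F statistic. The study used DESeq2, kept here (1.42.0) as an alternative. Symbols (for 14461 of the tested IDs), positions and transcripts came from GENCODE M21. RPKM used the length of the longest transcript that GENCODE marks as principal (for Saa3, Lcn2, Hp, Slpi and Cp 555, 915, 1345, 876 and 4029 nt). Correlations used log2 CPM with a prior count of 2. Motifs were chosen with the sequences in view, and the NF-kB search used a consensus with ambiguous letters. Named were all members, pathway genes past the threshold with examples of those that were not, and the 5 nearest profiles. The examples, S100a8 and Hps3 were chosen after their values were seen.

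Pairs of libraries of 1 genotype had a chi-square per gene between 5.55 and 43.5, above sampling noise. At this depth 3 counts are 0.0583 to 0.0717 CPM per library. Scripts were tested on simulated data. Alternatives were other size factors, filters, DESeq2, a replicate block, GC and length offsets (loess span 0.5) and each library left out. Leaving out both libraries that stood apart, and exon lengths for RPKM, were chosen after seeing the data. No column was left out.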

Additional observations from a re-analysis of the deposited data

How the results depend on the processing

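The direction of Saa3, Slpi, Hp and Cp held under all 15 alternatives, and Lcn2 turned only where the report says so. Refits were made of 22 other genes, the 17 pathway genes past the threshold and the 5 nearest profiles. Of these 330 refits, 289 kept their side of the threshold, 41 lost the call and 0 reversed. The tally includes genes that carry no test. Each of the 5 nearest profiles, chosen for their profile, lost 0 calls. Il1a, Il1b and Il6, which served to choose the members, lost 0, 3 and 5. Nothing is read from the tally for these genes.

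The count of genes past the threshold, 786, depended on the processing: 1951 with every gene of at least 1 count, 1528 with DESeq2, 2743 with GC and length offsets and 3757 without both libraries that stood apart. It ranged from 222 without Pdcd1f/fLysMcre replicate 1 to 3181 without Pdcd1f/f replicate 1 when libraries were left out in turn, with 224 without Pdcd1f/f replicate 2, 354 without Pdcd1f/f replicate 3 and 370 without Pdcd1f/fLysMcre replicate 2. The 17 pathway genes past the threshold, counted here with Il1a, Il1b and Il6, became 26, 24, 35 and 35 under the same 4 settings and 8 to 29 with a library left out (29 without Pdcd1f/f replicate 1, 8 without Pdcd1f/f replicate 2 or Pdcd1f/fLysMcre replicate 1, 9 without Pdcd1f/f replicate 3, 10 without Pdcd1f/fLysMcre replicate 2). Without these 3 genes, which served to choose the members, the 14 became 23, 21, 32 and 32 under the same settings and 7 to 26 with a library left out. The causes were not tested.

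The labels do not say whether same-numbered libraries shared more than a number. The correlations of their deviations were −0.08, −0.35 and 0.62 for replicates 1, 2 and 3. A replicate block gave 1027 genes and 19 pathway genes past the threshold, and the block with GC and length offsets gave 2826 and 38. The log2 fold change of Saa3 was −1.53 with the block and −1.52 with block and offsets, and Slpi was 0.67 and 0.74. The common biological coefficient of variation was 8.92%, and Saa1 and Saa2, with 0 counts, could not be compared.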
